A study of Mus musculus with 7 samples.

Results

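The 5fC maps compared here were those of mouse J1 ES cells that received a non-targeting siRNA (siRNA control) and of untransfected J1 cells (wild type). They make up 4 of the 7 samples of the series, 2 biological replicates per condition, chosen by their labels alone. The series has 6 pulldown libraries with domains, including 2 from cells with TDG knocked down, and 1 genomic input library of wild-type cells. Each pulldown was read at autosomal protein-coding genes: 21155 of 21418 had a TSS window (1 kb on either side of the annotated start) covered by domains in all 4 libraries, 263 did not, and 17255 had a measured gene body (from 1 kb past the TSS to the gene end, genes of at least 3 kb).

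All cells were the J1 line, derived from strain 129S4/SvJae, with no engineered allele. Wild-type cultures, labelled as wild-type in genotype and with no siRNA, were grown with LIF and serum on irradiated primary mouse embryonic fibroblasts. The siRNA control cultures carry no genotype label and were grown without feeder cells through repeated rounds of lipid transfection, partly in suspension, with a commercial non-targeting siRNA whose sequence was not given. Feeder layer, transfection and any difference in fibroblast DNA carried into the wild-type preparations cannot be told apart in this comparison. The library names start with BHAM in both wild-type replicates and in siRNA control replicate 1, and with EAR in siRNA control replicate 2. No expression was measured, so the identity of the cells was not checked here. The question the comparison can address is how far the cultures used as the reference for TDG knockdown already differed from untreated ES cells.

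5fC is an oxidised form of 5mC. The TET dioxygenases convert 5mC to 5hmC, then to 5fC and 5caC, and TDG excises 5fC and 5caC so that base excision repair can put back an unmodified cytosine. In ES cells, where TET enzymes are active, 5fC marks sites at which methylation is being turned over, and CpG-rich promoters are usually kept free of 5mC.

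The wild-type libraries held 45.9 and 27.4 M uniquely placed reads and the control libraries 29.2 and 28.8 M. Levels are given as excess read density, the pulldown-minus-input value of a window over the mean of its library, in reads per kb and per M reads. For scale, reads spread evenly over the covered sequence would give a density of 0.392 reads per kb per M reads. The enriched domains of the wild-type libraries had median widths of 700 and 8200 bp, and those of the control 9400 and 24550 bp. Domains that contained a TSS, taken in any state and not only the enriched one, had medians of 2600 and 36400 bp in wild type and 40900 and 77500 bp in the control. A domain with a single value thus covered the TSS of more than 1 gene for 19.9% and 65.8% of genes in wild type and for 67.7% and 82.2% in the control. Neighbouring genes are therefore not independent, and width follows the same order of libraries as several results below.

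Relative 5fC enrichment at the TSS was lower in both siRNA control libraries than in either wild-type library. The mean excess over all measured genes was 0.221 and 0.0896 reads per kb per M reads in wild-type replicates 1 and 2, and 0.0587 and 0.0283 in siRNA control replicates 1 and 2. The groups did not overlap, with means of 0.155 ± 0.0929 (SD, n = 2) in wild type and 0.0435 ± 0.0215 (SD, n = 2) in the control. The two-sided exact permutation test gave p = 0.333, the smallest that 2 libraries against 2 allow. The difference of -0.112 was -0.0309 between wild-type replicate 2 and control replicate 1, the libraries closest in domain width, a pair chosen after the values were seen. It was -0.0461 without wild-type replicate 1 and -0.177 without wild-type replicate 2. TSS level ran in the inverse order of domain width over the 4 libraries, and the part of width in the difference was not tested. The 2 TDG knockdown libraries, made from cells grown and transfected like the control, had means of 0.0301 and 0.123, so the second of them lay between the wild-type replicates.

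The difference was largest where CpG was dense. Promoters were sorted by the CpG content of the TSS window into high-CpG (10444 genes), intermediate-CpG (4139) and low-CpG (6572) classes. At high-CpG promoters the mean excess was 0.298 and 0.115 in wild type against 0.0706 and 0.0332 in the control. At intermediate-CpG promoters it was 0.212 and 0.0952 against 0.0672 and 0.0323. At low-CpG promoters it was 0.104 and 0.0449 against 0.0344 and 0.0182. In each class both control libraries lay below both wild-type libraries, and each exact permutation p was 0.333. When the values of each library were centred on their mean over genes and divided by their SD over genes, the high-CpG class still stood lower in the control (0.329 and 0.173 against 0.0974 and 0.0666 SD), while the low-CpG class stood higher (-0.498 and -0.298 against -0.199 and -0.14 SD). On this scale, where the mean over all genes is 0 in each library, the groups did not overlap in either class.

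**Figure D1:**
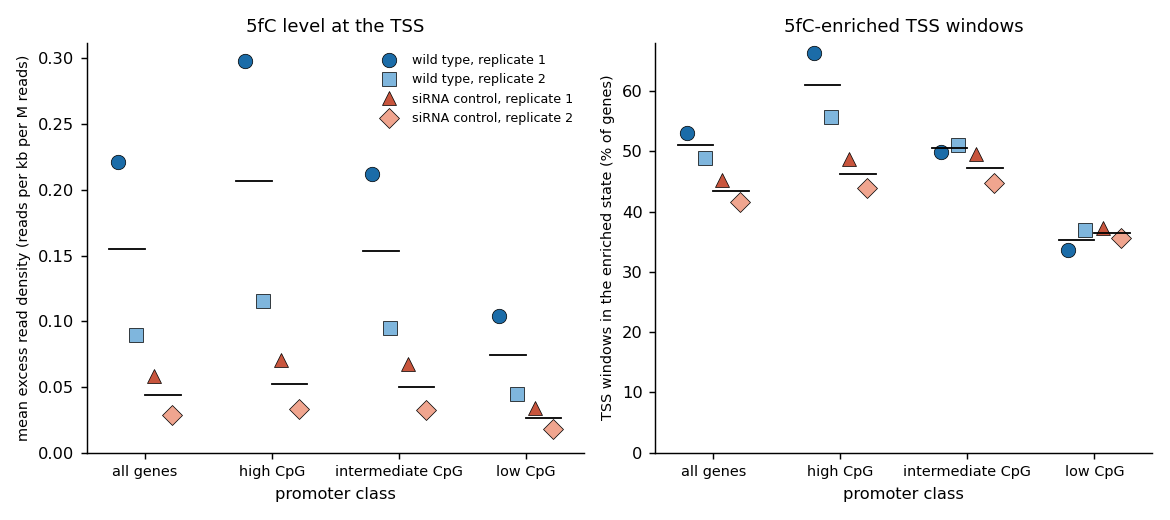
5fC at the TSS window by promoter class (x axis) in each library. The left panel gives the mean excess read density (reads per kb per M reads) and the right panel the percentage of genes whose window is in the enriched state; symbols are libraries and black lines the mean of each condition. Both control libraries lie below both wild-type libraries at high-CpG promoters, at 0.0706 and 0.0332 against 0.298 and 0.115.

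The share of genes with a 5fC-enriched TSS window, in which enriched domains cover at least 50% of the window, followed the same order. It was 53% and 49.0% in wild type and 45.3% and 41.5% in the control. At high-CpG promoters the shares were 66.4% and 55.7% against 48.7% and 43.9%. At intermediate-CpG promoters they were 49.9% and 51.0% against 49.6% and 44.8%, apart by less than the gap between replicates. At low-CpG promoters the shares overlapped, at 33.6% and 37.0% against 37.2% and 35.7% (two-sided exact permutation test, p = 0.667, n = 2 each). The overall difference of -7.55 percentage points became 4.26 when the window was widened to 10 kb on either side and 11.3 when the whole window had to be enriched, both settings that favour wide domains. With the lowest 25% of enriched domains of each library dropped it was -2.62, and the groups overlapped (exact permutation p = 0.667).

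The profile around the TSS differed most in its peak. At high-CpG promoters of wild-type replicate 1, excess density was 0.433 at the TSS and 0.131 and 0.152 at 10 kb upstream and downstream. In wild-type replicate 2 it was 0.122 at the TSS, against 0.0797 and 0.0888 in the flanks. In siRNA control replicate 1 it was 0.0728, against 0.0524 and 0.0593. In siRNA control replicate 2 no peak was left, with 0.0333 at the TSS and 0.0311 and 0.0344 in the flanks. The height of the peak over the mean of the flanks was thus 0.292 and 0.0377 in wild type and 0.0170 and 0.000521 in the control (two-sided exact permutation test, p = 0.333, n = 2 each). At low-CpG promoters the same height was 0.0833 and 0.0134 against 0.0102 and 0.00242. The wild-type replicates differed from each other by more than wild-type replicate 2 differed from the control.

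**Figure D2:**
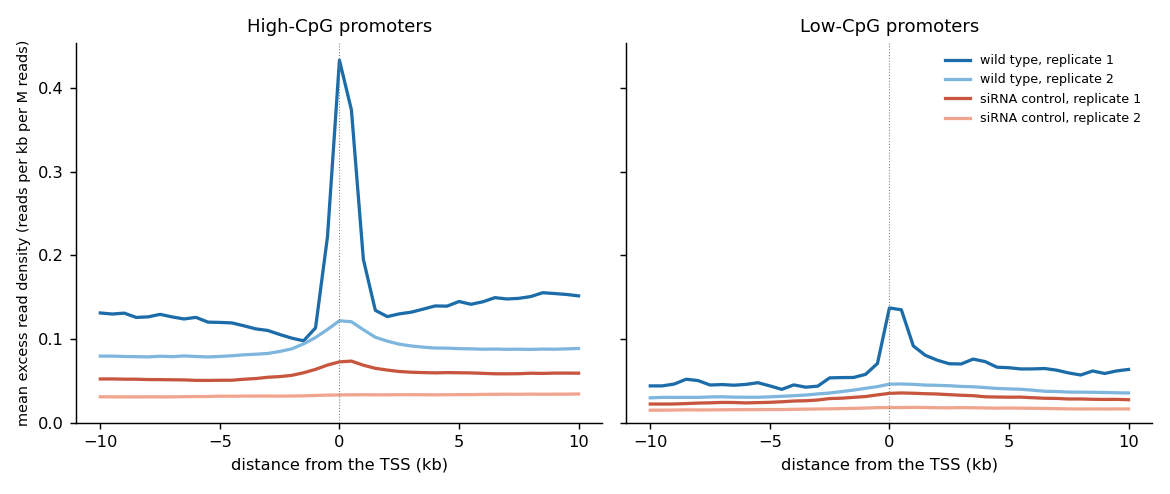
Mean excess read density (y axis, reads per kb per M reads) against distance from the TSS (x axis, kb) at high-CpG and low-CpG promoters, 1 line per library. At the TSS of high-CpG promoters the lines stand at 0.433, 0.122, 0.0728 and 0.0333 for wild-type replicates 1 and 2 and control replicates 1 and 2.

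Gene bodies showed a smaller difference in level and none in the share of enriched genes. Mean body excess was 0.157 and 0.0899 in wild type and 0.0629 and 0.0345 in the control (exact permutation p = 0.333). The difference of -0.0748 was -0.0412 without wild-type replicate 1. Within genes, TSS minus body was 0.0863 and 0.0110 in wild type and 0.00390 and -0.00226 in the control, so in the control the TSS stood out from the body of the same gene by little or not at all. This difference, -0.0478, was -0.0102 without wild-type replicate 1 and turned to 0.0107 with a window of 10 kb on either side. Bodies were enriched over at least 50% of their length in 38.7% and 48.7% of genes in wild type and 47.2% and 46.2% in the control, which overlapped. Short genes carried most 5fC in every library: bodies of genes of 3 to 10 kb had 0.235, 0.134, 0.0933 and 0.0520, and bodies of genes over 100 kb had 0.0448, 0.0218, 0.0171 and 0.00661, in the order of wild-type and control replicates. In each length class both control libraries were below both wild-type libraries.

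No single gene passed the test at the TSS or in the body. Limma with Benjamini-Hochberg adjustment at 0.05 called 0 of 21155 genes (0%) at the TSS in either direction, with a smallest adjusted p of 0.391, and 0 of 17255 genes (0%) in the body, with a smallest adjusted p of 0.268. At an unadjusted p under 0.05 there were 37 genes higher in the control (0.175%) and 2335 lower (11%) at the TSS, and 114 higher (0.661%) and 3008 lower (17.4%) in the body. These counts depended on which wild-type library was used. Without wild-type replicate 1, the lone wild-type library being assumed to vary like the control, 7 genes were called higher and 318 lower at the TSS, and 14 and 214 in the body. Without wild-type replicate 2, 208 and 11173 were called at the TSS and 220 and 6504 in the body. Without siRNA control replicate 1 or 2, 5 and 6 genes were called lower at the TSS. A trend in the spread with level gave 4 higher and 1 lower calls at the TSS, and 122 and 494 in the body.

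Described by whether the libraries of the conditions overlapped, 2698 genes (12.8%) had both control values above both wild-type values at the TSS and 9356 (44.2%) had both below. In the body 2707 genes (15.7%) were above and 8833 (51.2%) below. Values centred and divided by the SD of their library gave 5555 above (26.3%) and 3688 below (17.4%) at the TSS, and 4407 (25.5%) and 3962 (23%) in the body, so the split between directions depended on the scale. The SD over genes at the TSS was 0.234 and 0.15 in wild type and 0.122 and 0.0727 in the control. Values in the control thus lay closer to the library mean both at 5fC-rich and at 5fC-poor genes. Across genes, which are not independent replicates, the Pearson correlation of TSS excess was 0.656 between the wild-type replicates and 0.742 between the control replicates. Between conditions it was 0.714 and 0.666 for wild-type replicate 2 with control replicates 1 and 2, and 0.595 and 0.520 for wild-type replicate 1. Spearman's rho was 0.658 and 0.752 within conditions and 0.520 to 0.744 between them. In the body Pearson's r was 0.896 and 0.871 within conditions and 0.762 to 0.873 between them. All 4 libraries share the input that was taken off.

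By state, 838 genes (3.96%) had a TSS window enriched in both wild-type libraries and neither control library, and 300 (1.42%) the reverse. The order of these counts depended on the setting: with windows of 10 kb on either side they were 142 and 545, and with the whole window enriched 120 and 676. A further 5803 genes were enriched in all 4 libraries and 6732 in none. Genes enriched in wild type alone were mostly high-CpG: 650 of 838, which is 6.22% of high-CpG genes, against 76 low-CpG genes (1.16% of that class). Genes enriched in the control alone included 99 high-CpG and 124 low-CpG promoters, 0.948% and 1.89% of their classes. The TSS window held a median of 101 CpGs in the wild-type-only genes, 34 in the control-only genes and 63 over all genes. In the body 152 genes (0.881%) were enriched in wild type alone and 352 (2.04%) in the control alone, which turned to 827 and 15 with any enriched base and to 591 and 433 without wild-type replicate 1. Of the genes with a measured body, 743 were wild-type-only and 235 control-only at the TSS. The body had the same pattern in 43 and 64 of these. Between wild-type replicate 2 and control replicate 1, the libraries closest in domain width, 2214 TSS windows (10.5%) were enriched in wild type alone and 1437 (6.79%) in the control alone, and 13.8% of high-CpG promoters were enriched in wild type alone.

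**Figure D3:**
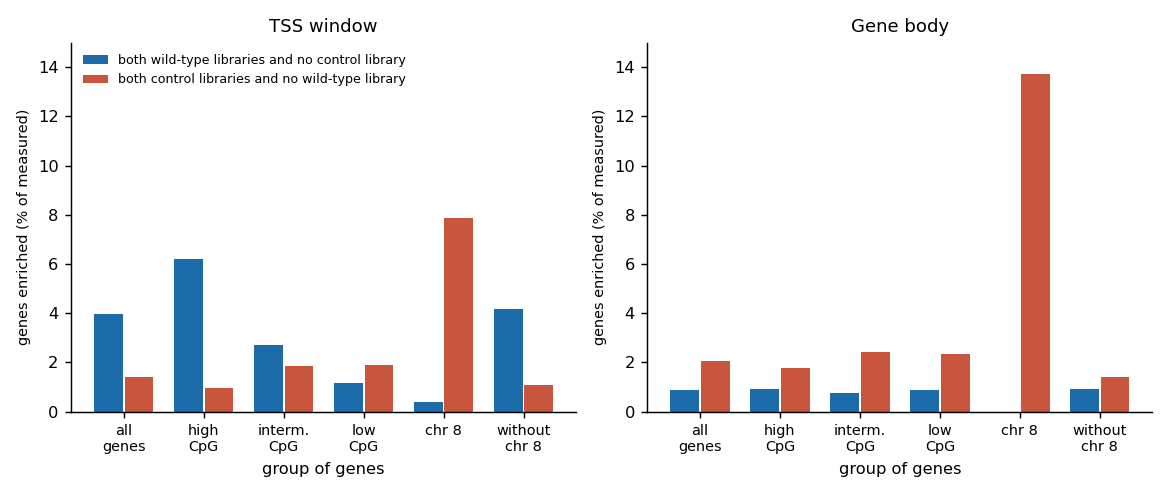
Percentage of measured genes (y axis) that were 5fC-enriched in both libraries of one condition and in neither of the other, at the TSS window (left) and in the body (right), by promoter class and for chromosome 8 (x axis). High-CpG promoters have 6.22% wild-type-only genes, and chromosome 8 has 7.88% control-only genes at the TSS and 13.7% in the body.

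The genes with the widest gap between conditions in each state pattern show how far single genes keep to this difference in CpG content. The 200 bases upstream of the annotated TSS are shown for these genes (mm9, strand of the gene, 5′ to 3′), with each CpG, the site at which 5mC and hence 5fC can arise on both strands, in capitals (CG). Over all 21155 genes, 90.6% of such stretches hold a CG and the median number is 8. Wild-type-only genes had a median of 14 and control-only genes of 4. For the wild-type-only genes the stretches are chr10:108448039-108448238 for Syt1 (minus strand, 6 CpGs), chr12:102321913-102322112 for Smek1 (minus strand, 19) and chr16:5049961-5050160 for Ubn1 (plus strand, 25).
Syt1: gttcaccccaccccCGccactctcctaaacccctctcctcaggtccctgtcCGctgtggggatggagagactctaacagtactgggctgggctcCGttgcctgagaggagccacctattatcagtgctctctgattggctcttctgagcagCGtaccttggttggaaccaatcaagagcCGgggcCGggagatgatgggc
Smek1: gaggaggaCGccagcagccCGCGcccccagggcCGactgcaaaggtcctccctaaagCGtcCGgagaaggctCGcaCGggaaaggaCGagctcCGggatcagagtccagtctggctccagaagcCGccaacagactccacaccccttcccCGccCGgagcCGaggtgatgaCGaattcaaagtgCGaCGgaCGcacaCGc
Ubn1: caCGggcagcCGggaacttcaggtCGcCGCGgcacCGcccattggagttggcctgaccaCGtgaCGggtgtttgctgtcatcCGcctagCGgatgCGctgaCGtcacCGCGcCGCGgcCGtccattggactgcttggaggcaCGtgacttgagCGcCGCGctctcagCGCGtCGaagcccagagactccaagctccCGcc
For the control-only genes they are chr13:66774267-66774466 for Zfp640 (minus strand, 0 CpGs), chr12:89054825-89055024 for BB287469 (plus strand, 3) and chr8:23303081-23303280 for Vps36 (plus strand, 10).
Zfp640: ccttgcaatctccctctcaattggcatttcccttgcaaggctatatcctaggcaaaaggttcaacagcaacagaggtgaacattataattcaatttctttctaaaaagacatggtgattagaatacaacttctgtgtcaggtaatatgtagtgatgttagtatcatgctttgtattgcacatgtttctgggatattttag
BB287469: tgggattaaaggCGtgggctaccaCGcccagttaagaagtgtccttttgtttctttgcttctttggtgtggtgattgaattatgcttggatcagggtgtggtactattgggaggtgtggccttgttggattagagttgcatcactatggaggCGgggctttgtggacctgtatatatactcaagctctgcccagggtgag
Vps36: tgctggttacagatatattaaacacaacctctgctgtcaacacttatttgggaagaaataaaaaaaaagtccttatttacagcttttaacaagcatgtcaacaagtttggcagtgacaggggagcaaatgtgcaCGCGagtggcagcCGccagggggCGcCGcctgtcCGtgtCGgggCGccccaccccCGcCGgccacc
CpGs run through the whole stretch at Smek1 and Ubn1 and are few at Syt1, although its TSS window holds 64. Zfp640 has none and BB287469 few, and Vps36, on chromosome 8, has all of its CpGs in the part nearest the TSS and 91 in its TSS window, more than Syt1 and against the difference between the medians.

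Syt1 encodes synaptotagmin, the calcium sensor of synaptic vesicle release. Its TSS window had excess densities of 0.542 and 0.565 in wild type and -0.0553 and -0.0333 in the control. The wild-type values came from narrow domains of 2000 bp in both replicates, and in the control the TSS lay inside background-state domains, of 447400 and 2255300 bp. The difference was -0.598 with an SE of 0.0741 (limma, adjusted p = 0.391). In the body the 4 values were -0.0835, -0.0611, -0.0378 and -0.0318, so the wild-type signal was held to the TSS.

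Smek1, a regulatory subunit of protein phosphatase 4, had 0.518 and 0.526 in wild type and -0.0978 and -0.0474 in the control. Ubn1, a subunit of the HIRA complex that deposits histone H3.3, had 0.591 and 0.528 against -0.0532 and -0.0353. Pigp, which takes part in making GPI anchors, had 0.567 and 0.490 against -0.0580 and -0.0648. In these 3 genes both wild-type libraries were high and both control libraries were below the library mean. Prkar2a, a regulatory subunit of protein kinase A, had 0.606 and 0.643 against 0.0237 and 0.0674. For these 4 genes the domain at the TSS was 1900 to 2700 bp wide in wild type and 30800 to 738300 bp in the control, and limma gave each an adjusted p of 0.391.

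The remaining genes with the widest gaps in this direction had large and unequal values. Rrs1, a ribosome biogenesis factor, had 1.27 and 0.735 in wild type and 0.155 and 0.0794 in the control, and its window was enriched in all 4 libraries. Sfi1, which encodes a centrosomal protein, had 4.07 and 2.87 against 1.61 and 0.966. Enriched domains covered 0% of its window in wild-type replicate 2 and 100% in control replicate 2, so level and state disagreed. Its body values overlapped, at 3.51 and 1.31 against 1.65 and 0.966. Dux, a transcription factor gene that lies in near-identical tandem copies, had 1.58 and 0.620 against 0.0648 and -0.0205. Values in windows with repeated copies such as Dux are uncertain, since only uniquely placed reads were kept.

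In the other direction, 6 of the 8 genes with the widest gaps lay on chromosome 8. Of the 100 widest such gaps over all genes, 58 were on this chromosome, against 1 of the 100 widest gaps lower in the control. Chromosome 8 holds 1079 of the 21155 measured genes, and genes that share a domain do not count as separate signals. Zfp640, on chromosome 13, encodes a zinc finger protein of a large family and had -0.173 and -0.0387 in wild type and 0.373 and 0.294 in the control. The difference was 0.439 with an SE of 0.0863 (limma, adjusted p = 0.391). BB287469, a gene on chromosome 12 known by its sequence identifier, had -0.0563 and -0.0406 against 0.258 and 0.242. Zfp640 lies in a cluster of related zinc finger genes, so the placing of reads there is uncertain. On chromosome 8, Vps36, a subunit of the endosomal ESCRT-II complex, had -0.151 and -0.163 against 0.123 and 0.0886. Ccdc7 had -0.0727 and -0.0889 against 0.324 and 0.157. The defensin genes Defb7 and Defb38 and the pseudogene-like Ap3s1-ps2 and Rps6-ps2 completed the set, with control values between 0.0916 and 0.299 and wild-type values between -0.157 and 0.0160. The TSS domains of these 6 chromosome 8 genes were 4100 to 369700 bp wide in wild type and 11100 to 1467300 bp in the control. Their control values were thus averages over sequence well beyond the TSS window.

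**Figure D4:**
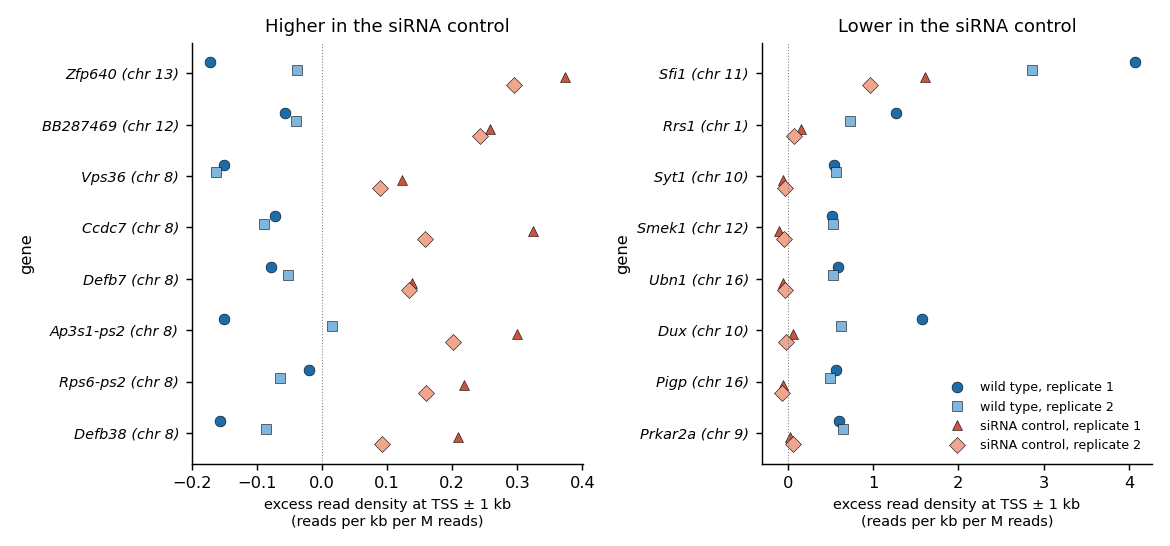
Excess read density at the TSS window (x axis, reads per kb per M reads, linear) of the 8 genes with the widest gap between conditions in each direction (y axis, with chromosome). Symbols are libraries; at Syt1 the wild-type libraries stand at 0.542 and 0.565 and the control libraries at -0.0553 and -0.0333, and 6 of the 8 genes higher in the control are on chromosome 8.

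Outside chromosome 8, the 6 genes with the widest gaps after Zfp640 and BB287469 included several whose body was rich in 5fC in wild type. They were chosen after the values were seen. Hoxb6, a homeobox gene, had -0.0716 and -0.00928 in wild type and 0.14 and 0.125 in the control at the TSS. Its body had 0.228 and 0.0939 against 0.14 and 0.125, the control values being the same at the TSS and in the body. Bcl11b, a zinc finger regulator of T cell development, had -0.0163 and -0.00810 against 0.186 and 0.126 at the TSS, and 0.262 and 0.209 against 0.156 and 0.116 in the body. Gzmc, a granzyme gene, and Kctd5, an adaptor of a ubiquitin ligase, had the same order: below 0 at the TSS in wild type, above 0 in the control, and a body that was higher in wild type. Hoxb6, Bcl11b, Gzmc and Kctd5 had TSS domains of 1600 to 7700 bp in wild type and of 10800 to 139400 bp in the control. Fam196b had -0.0351 and -0.0428 against 0.118 and 0.101, and the protocadherin gene Pcdhb22 was below the library mean in all 4 libraries.

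Among gene bodies, the 5 genes with the widest gap higher in the control were all on chromosome 8. They were Gins3 (a subunit of the GINS replication complex), Ces1b (a carboxylesterase), Syce2 (a synaptonemal complex protein), Aadat (an aminotransferase) and Rspry1. Gins3 had -0.0441 and -0.0375 in wild type and 0.269 and 0.194 in the control. Syce2 had 0.0158 and 0.0635 against 0.256 and 0.214. In the other direction the genes lay on 5 different chromosomes. Trmt2a, a tRNA methyltransferase, had 0.319 and 0.251 in wild type and -0.0408 and -0.0373 in the control. Mib2, an E3 ligase that acts on Notch ligands, had 0.549 and 0.385 against 0.0798 and 0.00653. Slc26a1, a sulfate transporter, Prss16, a thymus protease, and Clic1, a chloride channel protein, followed. Limma gave each of these 10 genes an adjusted p of 0.268 in the body.

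Chromosome 8 was higher along nearly its whole length in the siRNA control. Its mean excess density, over all sequence, was 0.0475 and 0.0372 in wild type and 0.115 and 0.101 in the control. In percent of the mean read density these were 12.1% and 9.48% against 29.4% and 25.9%. Among the other 18 autosomes the highest value was 0.0837 and 0.0514 in wild type and 0.0543 and 0.0398 in the control, each time below chromosome 8 in the control. Sequence in the background state showed the same: -0.00246 and -0.00366 in wild type against 0.0295 and 0.0428 in the control, where no other autosome exceeded 0.0102 and 0.0118. The means differed by 0.0661 over all sequence and by 0.0392 in the background state, with no overlap (two-sided exact permutation test, p = 0.333, n = 2 each). Of 13 windows of 10 Mb along the chromosome, 12 were higher in both control libraries than in both wild-type libraries and none was lower in both. Windows higher in both control libraries were also common on some other autosomes. They numbered 10 of 16 on chromosome 3 and 11 of 20 on chromosome 1, but 2 of 14 on chromosome 7 and 0 of 6 on chromosome 19. Between wild-type replicate 2 and control replicate 1, closest in domain width, the mean TSS excess of chromosome 8 genes was 0.165 against 0.213, and that of the other autosomes 0.0855 against 0.0504.

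Genes of chromosome 8 stood higher in the control by state, while their levels at the TSS were mixed. Of its 1079 measured genes, 83.3% and 87.6% had an enriched TSS window in the control, against 66.0% and 71.2% in wild type. Control-only genes numbered 85 at the TSS (7.88%) and 123 of 896 in the body (13.7%), against 4 and 0 wild-type-only genes. On the other autosomes 215 genes (1.07%) were control-only and 834 (4.15%) wild-type-only at the TSS, and 229 (1.40%) and 152 (0.929%) in the body. By level, 160 genes (14.8%) had both control values above both wild-type values at the TSS and 199 (18.4%) had both below, against 12.8% and 44.2% of all genes. The median TSS difference on chromosome 8 was -0.0662, which is 0.0524 above the median of the other autosomes, or 0.0257 above it without wild-type replicate 1. With each library centred and divided by its SD over genes, 78.8% of genes on chromosome 8 stood above both wild-type values, against 26.3% of all genes. On that scale the median difference was 1.06 SD against 0.0273 SD over all genes. A gain of chromosome 8 is a known recurrent change of cultured mouse ES cells. Copy number was not measured in these cultures, the input came from wild-type cells, and its part in the result was not tested.

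**Figure D5:**
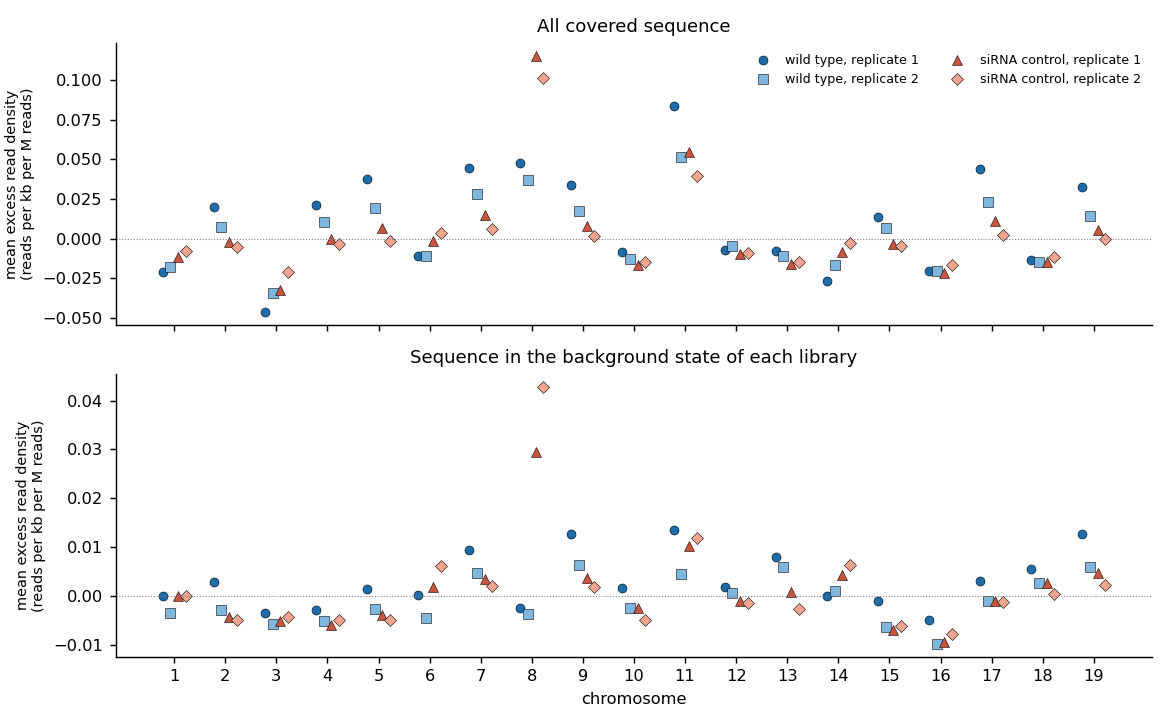
Mean excess read density of each autosome (x axis) in the 4 libraries, over all covered sequence (top) and over sequence in the background state of the library (bottom), in reads per kb per M reads (y axes, linear). Chromosome 8 stands at 0.115 and 0.101 in the control and 0.0475 and 0.0372 in wild type, and at 0.0295 and 0.0428 against -0.00246 and -0.00366 in the background state.

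Genes of known roles were read from lists, of which no member passed the test. Their shares are set against 12.8% of all genes higher and 44.2% lower without overlap at the TSS, and against a median difference of -0.115. The lists differ in promoter class: for example, 32 of 34 neural, 27 of 30 BMP and TGF-beta and 9 of 37 interferon response genes were high-CpG, against 10444 of 21155 genes. Levels differed most in that class, and the lists were not compared within classes. Counts on the SD scale, from values centred and divided by the SD of their library, are given where they turn the direction and for some other lists, against 26.3% of all genes higher and 17.4% lower. Of 30 genes of 5mC oxidation, base excision repair and DNA methylation, 21 were lower in both control libraries, 0 were higher and 9 overlapped, with a median difference of -0.184. Mbd4, a glycosylase that removes thymine and uracil from CpG mismatches, had 0.324 and 0.253 in wild type and -0.0806 and -0.0161 in the control at the TSS, and was enriched in wild type alone. Tdg had 0.199 and -0.0112 against -0.0902 and -0.0509. Tet1 had 0.0102 and -0.0492 against -0.0811 and -0.0506. Both stood lower in the control by less than the gap between the wild-type replicates. Neil3, a glycosylase gene on chromosome 8, had the highest difference in the list, with 0.0917 and -0.0903 against 0.307 and 0.0188, which overlapped.

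Of 29 pluripotency genes 15 were lower, 1 was higher and 13 overlapped, with a median difference of -0.119. Pou5f1, which encodes OCT4, had 0.406 and 0.319 in wild type and 0.0647 and 0.113 in the control. Esrrb, a nuclear receptor of the naive state, had 0.434 and 0.205 against 0.143 and 0.0777. Nanog had 0.193 and 0.233 against 0.195 and 0.0374, which overlapped. Lefty2, a Nodal antagonist, had the lowest difference, with 0.635 and 0.146 against 0.113 and 0.0632, and the nuclear receptor gene Nr5a2 the highest, with -0.122 and -0.0482 against 0.0138 and -0.0434. Of 18 LIF and STAT3 pathway genes, 10 were lower and 0 higher. The STAT3 target Sp5, with the lowest difference in this list, was enriched in wild type alone, with 0.595 and 0.334 against 0.0323 and 0.0419. Il6st had the highest difference, with -0.0751 and -0.03235 against -0.0422 and -0.00682, which overlapped.

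Genes that mark fibroblasts, the cells of the feeder layer, were of interest because feeder DNA could enter the wild-type preparations. Of 37 such genes 14 were lower in the control, 7 were higher and 16 overlapped, and their median difference was -0.0861. On the SD scale the direction turned, with 13 higher and 5 lower. Vim, encoding the intermediate filament vimentin, had 0.482 and 0.139 in wild type and -0.0370 and -0.0379 in the control. Pdgfra, a growth factor receptor of mesenchymal cells, had -0.00682 and -0.00534 against 0.111 and 0.0362. The collagen gene Col1a1 overlapped, with 0.209 and 0.200 against 0.225 and 0.155. Matrix and adhesion genes numbered 19 lower and 0 higher of 36, and 13 lower and 4 higher on the SD scale. Epcam, an epithelial adhesion molecule with the lowest difference in this list, stood at 0.422 and 0.256 against 0.0341 and -0.00660. Sdc4 had the highest difference, with -0.0358 and 0.0255 against 0.0648 and 0.0105, which overlapped. 5fC at a gene does not measure its expression, and the share of feeder DNA was not tested.

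Lists chosen for a possible response to transfection are given beside the 44.2% of all genes that were lower. Of 37 interferon response genes 21 were lower and 4 higher, but 6 lower and 10 higher on the SD scale. Irf1, an interferon-induced transcription factor, had 0.602 and 0.283 in wild type and 0.164 and 0.0909 in the control, and Ifi27l1 had 0.0434 and 0.0197 against 0.268 and 0.122. Of 22 genes of small RNA pathways 10 were lower and 0 higher, and 8 lower and 0 higher on the SD scale. Ddx6, an RNA helicase of processing bodies, had the lowest difference in this list, with 0.298 and 0.425 against -0.0498 and -0.0318. Tnrc6b had the highest, with -0.0119 and -0.0135 against 0.07945 and -0.0285, which overlapped. Of 25 p53 and stress genes 11 were lower and 0 higher. Of 30 genes of lipid synthesis 15 were lower and 1 higher, but 4 lower and 8 higher on the SD scale, with the fatty acid synthase gene Fasn at 0.871 and 0.391 against 0.253 and 0.143. Of 30 genes of the unfolded protein response 20 were lower and 1 higher, with the chaperone gene Hspa5 at 0.623 and 0.273 against -0.0223 and 0.00751.

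Developmental and imprinted genes were counted in the same way. Lower and higher genes numbered 21 and 1 of 30 in BMP and TGF-beta signalling, 11 and 0 of 19 among primed epiblast genes and 8 and 2 of 19 among primitive endoderm genes. They numbered 20 and 0 of 34 among neural genes, 15 and 5 of 38 among imprinted genes and 11 and 0 of 27 among germline genes silenced by promoter methylation. On the SD scale the direction turned for primitive endoderm genes (3 lower and 7 higher) and neural genes (4 and 6). Fgf5, a growth factor of the primed epiblast, had the lowest difference in its list. Its values were 0.457 and 0.213 in wild type and -0.0140 and -0.0198 in the control. Otx2 had the highest difference in that list, with -0.0483 and 0.000316 against -0.00771 and -0.0146, which overlapped. Sycp1, a synaptonemal complex gene of the germline list, had 0.562 and 0.299 against -0.0886 and -0.0504, while its body had -0.167 and -0.117 against -0.0886 and -0.0504. In the germline list 11 of 24 bodies were higher in the control and 3 lower, where 15.7% and 51.2% of all bodies were. The median level of these bodies was below the library mean in every library, at -0.0749 and -0.0551 in wild type and -0.0248 and -0.0125 in the control. In the median the control was thus higher and closer to the library mean. Smad1, a BMP effector on chromosome 8, had -0.0236 and 0.0832 against 0.159 and 0.128.

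Gene families showed both ends of the range. Among 72 ribosomal protein genes 45 were lower in the control and 1 higher, with median levels of 0.290 and 0.153 in wild type and -0.0134 and 0.00158 in the control. Their windows were enriched in 47 and 41 genes in wild type and 25 and 29 in the control. Centred and divided by the SD of each library, 26 were lower and 6 higher, with a median difference of -0.386 SD against 0.0273 SD over all genes. Rpl7 had the lowest difference, with 0.461 and 0.315 against 0.00520 and 0.000407. Rps3 had the highest, with -0.0225 and -0.0701 against -0.0125 and 0.0176. These short, CpG-rich genes have many processed pseudogenes, so some reads from them are not uniquely placed.

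Olfactory receptor genes, which are CpG-poor and silent in ES cells, stood at the other end. Of 1104 measured, 649 were higher in the control and 61 lower, and 700 and 34 on the SD scale. Their median levels were below the library mean in every library, at -0.138 and -0.0843 in wild type and -0.0693 and -0.0446 in the control, and 958 were enriched in none of the 4. The control medians were thus higher and closer to the library mean. On the SD scale the median difference was still 0.329 SD, against 0.0273 SD over all genes. Neighbouring receptors share domains. Histone cluster genes, of which 65 of 67 were high-CpG, had medians below the library mean in every library. Of these genes 57 were enriched in none of the 4. They were higher in 19 and lower in 10 of 67, but higher in 1 and lower in 9 on the SD scale. Their median difference of 0.00431 did not share the lower level of the high-CpG class in the control. Hox genes numbered 15 lower and 2 higher of 39 on the level scale, but 17 higher and 6 lower on the SD scale. Zfp genes were lower in 136 and higher in 35 of 358, and clustered protocadherin genes in 6 and 3 of 24. On the SD scale 71 Zfp genes were lower and 69 higher, and 5 protocadherin genes were lower and 9 higher.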

How the data were processed

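5fC pulldown libraries of wild-type and siRNA control J1 cells were compared, 2 biological replicates each. The labels do not tie them to separate cultures, and p-values measure only the spread between these libraries. The authors aligned reads to mm9 with BWA (0.6.1 in the submitters' processing notes), kept reads with a mapping quality of at least 15 and ran rseg on each replicate against the wild-type input in bins of 100 bp. Each domain carries a score made by the authors, the average of pulldown minus input reads per bin without scaling for depth. Another deposited score, which grows with width, was left out. As windows came without read counts, counting error could not be stated. Depth was taken from the study's table of libraries.

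The score was averaged over each window by length, the library mean was taken off, and the result was divided by M reads and expressed per kb. TSS and body windows came from GENCODE M1, the sequence from the mm9 assembly. A window was measured where domains covered at least 50% of it in all 4 libraries. High-CpG promoters hold a 500 bp stretch with a CpG ratio above 0.75 and GC above 55%, and low-CpG promoters none with a ratio above 0.48. Genes were tested with limma 3.58.1 (R 4.3.3) without covariates, Benjamini-Hochberg threshold 0.05, and library means with two-sided exact permutation tests. The test was run on simulated data with large planted changes and the same spread in all 4 libraries. The real libraries differ in spread, so that run does not show what the test can detect here. Levels per library are not strictly comparable, since rseg averages over domains of different width and input reads weigh more in shallower libraries. Python 3.11.15, NumPy 2.4.6, SciPy 1.17.1 and Matplotlib 3.10.9 were used.

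The members and gene lists were chosen with earlier results of these data known. Named genes were the 8 higher and 8 lower at the TSS and the 5 higher and 5 lower in bodies of at least 5 kb by the gap between the conditions, 1 per 100 kb and without provisional gene names, the 3 widest gaps of each state pattern, and the highest and lowest member of each list. One gene that this rule selects is not reported here. Mbd4, Tdg, Tet1, Pou5f1, Esrrb, Nanog and Col1a1 were added for their roles after their values were seen, as were the genes higher outside chromosome 8. For gene symbols that occur more than once, lists took the longest measured copy.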

Additional observations from a re-analysis of the deposited data

Results flagged for a closer look

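Both TDG knockdown libraries, which no comparison above used as a group, also had a higher chromosome 8 than wild type. Its mean excess density was 0.0849 reads per kb per M reads in TDG knockdown replicate 1 and 0.12 in replicate 2, against 0.0475 and 0.0372 in wild type. Background-state sequence of chromosome 8 stood at 0.0301 and 0.0205 in these libraries, against at most 0.00798 and 0.00870 on any other autosome. All 4 transfected libraries thus had higher values on this chromosome than either wild-type library. The cause was not tested.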

How the results depend on the processing

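The precision rests on 2 libraries per condition, and depth differs most for wild-type replicate 1. The mean TSS and body excess and the chromosome 8 difference kept their direction under every alternative run. Without wild-type replicate 1 or 2 or control replicate 1 or 2 in turn, TSS calls by limma ranged from 0 to 208 higher and from 5 to 11173 lower, and body calls from 0 to 220 higher and from 0 to 6504 lower. A trend gave 4 and 1 at the TSS and 122 and 494 in the body, a filter on low values 1 lower at the TSS, and leaving the library mean in 12 lower in the body. TSS minus body excess turned to 0.0107, and the share of enriched TSS windows to 4.26 percentage points, with a window of 10 kb on either side, and that share to 11.3 where the whole length had to be enriched. The share of enriched bodies, 3.02 points higher in the control, turned to -17.4 with any enriched base and to -1.98 without wild-type replicate 1 (lowest of the range, highest 8.01). TSS windows enriched in the control alone numbered 545, 77 and 676, and in wild type alone 142, 1334 and 120, with 10 kb windows, any enriched base and the whole length, and 617 to 1214 and 1384 to 2836 with 1 replicate left out. Bodies numbered 15 and 604 in the control alone and 827 and 9 in wild type alone with any enriched base and the whole length, and 433 to 1253 and 236 to 591 with 1 replicate left out. Bodies enriched in the control alone numbered 229 without chromosome 8, an alternative added after seeing the data. Of 468 recomputed differences for 78 named gene results, 15 changed sign, all for genes named as the highest of a list. The cause was not tested. No paired analysis was possible because the labels give the replicates no numbers. The comparison within the BHAM prefix is the one without control replicate 2.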
